A study of Mus musculus with 2 samples.

Results

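Serpins are protease inhibitors of a shared fold, and Slpi is an inhibitor of the same neutrophil proteases from another family, the whey acidic protein family. All probes whose gene name began with Serpin, or was Slpi, were followed in bone marrow granulocytes and bone marrow monocytes, both sorted from C57BL/6 males of wild type genotype. The array held 75 such probes for 55 genes, and 34 of the 55 genes were well above background on at least 1 of the 2 arrays. The rule did not use the difference between the cell types. Total RNA from each cell type was amplified, labelled with the dye Cy3 and hybridised to 1 one-colour Agilent array, so no difference below has a replicate and no test was made. The sources used here do not give the markers and gates of the sort, the number of mice or their age.

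An inhibitory serpin presents a loop that a protease cleaves as if it were a substrate. The cleaved loop then inserts into the body of the serpin and drags the protease with it, which leaves both trapped in a covalent complex. Serpins of clade B lack a classical secretion signal and act mostly inside cells, where in myeloid cells they are known to restrain proteases that leak from granules and lysosomes. Serpins of clade A and most other clades are secreted, many of them by the liver, and control proteases of inflammation, coagulation and fibrinolysis in plasma. Slpi, the secretory leukocyte protease inhibitor, binds elastase and cathepsin G reversibly. A few family members, such as Serpinf1 and Serpinh1, do not inhibit proteases.

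Each gene was read by 1 or 2 probes of 60 bases. The probes below are a selection from those followed. Serpinb1a, Serpinb1b and Serpinb1c are among them because these genes are close copies of each other. Of the genes past 4-fold, Slpi, Serpinb3c, Serpinb11, Serpina3g and Serpinh1 have no probe printed. Capitals mark the longest run of bases that a probe shares with a probe of another serpin gene or Slpi.
Serpinb1a: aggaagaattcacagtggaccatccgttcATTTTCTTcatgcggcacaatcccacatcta
Serpinb1b: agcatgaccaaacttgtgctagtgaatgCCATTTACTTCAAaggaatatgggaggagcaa
Serpinb1c: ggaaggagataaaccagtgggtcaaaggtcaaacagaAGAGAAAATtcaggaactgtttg
Serpinb6a: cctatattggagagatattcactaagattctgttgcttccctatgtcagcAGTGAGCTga
Serpinb6c: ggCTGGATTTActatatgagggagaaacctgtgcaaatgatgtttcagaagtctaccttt
Serpinb10: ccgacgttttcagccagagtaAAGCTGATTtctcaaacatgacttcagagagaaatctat
Serpinb8: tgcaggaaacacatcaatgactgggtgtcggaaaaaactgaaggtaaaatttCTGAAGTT
Serpinf1: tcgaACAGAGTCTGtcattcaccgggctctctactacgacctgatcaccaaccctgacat
In the mouse build mm8, the build of the array files, these probes lie as follows. The Serpinb1a probe is at chr13:32850318-32850377 on the minus strand, and the Serpinb1b probe is at chr13:33098821-33098880 on the plus strand. The Serpinb1c probe spans chr13:32891808-32893657 on the minus strand, which is more than its 60 bases, so its ends lie in different exons. The Serpinb6a probe is at chr13:33926250-33926309 and the Serpinb6c probe at chr13:33888198-33888256, both on the minus strand. The Serpinb10 probe is at chr1:109374360-109374419, and the Serpinb8 probe spans chr1:109430422-109432167, again across exons. The Serpinf1 probe printed is the dimmer of its pair, at chr11:75231856-75231915 on the minus strand. The longest shared run among the 8 was 13 bases, between the Serpinb1b probe and a probe for Serpinc1, and the probes of the Serpinb1 copies shared at most 7 bases in a row with each other. Runs were compared between probes only, and not between a probe and the transcript of another copy, so cross-hybridisation was not tested.

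Signals below are background-subtracted intensities, and a level is log2 of the signal minus log2 of the array's 75th percentile (339.4 in granulocytes, against 620.9 in monocytes). Differences are granulocyte minus monocyte on this log2 scale, with the error that the scanner software gives for the spots. For Serpinb1a it was 6174 on a signal of 61736 in granulocytes and 2861 on a signal of 28613 in monocytes. The other bright serpin signals and Slpi had the same share on both arrays, so their error is in effect a fixed part of the signal. It is not a spread measured between spots, and the ± values of bright genes do not give a measured precision. This error leaves out the spread between animals and between sorts, which 1 array per cell type does not show. Probes differ in how well they bind, so the order of signals between genes is not an order of transcript levels. In bulk samples, fewer cells of a type and less RNA per cell cannot be told apart.

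The labels were set beside marker genes. All 7 granulocyte markers were above background on both arrays, 5 of them passed 4-fold in favour of granulocytes, and their summed level relative to the 75th percentile was 2497 in granulocytes and 501 in monocytes. All 8 monocyte markers were above background on both arrays and 7 passed 4-fold in favour of monocytes, with summed levels of 15.5 in granulocytes and 530 in monocytes. The directions therefore followed the labels, while neither list was at background on the other array. Signal was well above background for 63.9% of probes in granulocytes and 68.2% in monocytes, and no gene spot was saturated.

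The differences of the serpin genes and Slpi had a median of 0.99, and those of all genes had a median of 0.45, lower bounds included. Of the 34 genes, 6 passed 4-fold in favour of granulocytes (17.65%), where 8.54% of all 15609 named genes above background did. In favour of monocytes, 3 of the 34 passed 4-fold (8.82%), against 10.4% of all genes. At the smaller size of 2-fold, 16 were higher in granulocytes (47.06%, against 29.1% of all genes) and 5 in monocytes (14.71%, against 20.9%). The other 11 with a difference lay within 2-fold, and 2 genes had no fold.

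These counts moved with the scaling, which adds 0.87 to every difference (1.83-fold). Without it, Serpinb6a, Serpinb3c and Serpinb11 were the 3 genes past 4-fold in favour of granulocytes, and 5 genes passed 4-fold in favour of monocytes, as Serpinb8 and Serpina3f joined Serpinf1, Serpina3g and Serpinh1. At 2-fold the unscaled counts were 8 in favour of granulocytes and 7 in favour of monocytes. After normexp, a background correction with an offset of 50, the genes past 4-fold were Serpinb6a, Serpinb3c and Slpi for granulocytes and Serpinf1 alone for monocytes. Without scaling the median difference was 0.01 for the serpin genes and Slpi and -0.42 for all genes. Of the 15 genes measured on both arrays and at least 2-fold higher in granulocytes, 7 had scanned signals within 2-fold of each other. Across the 8 other settings tried, the median of the members lay above that of all genes by 0.26 to 0.61.

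**Figure D1:**
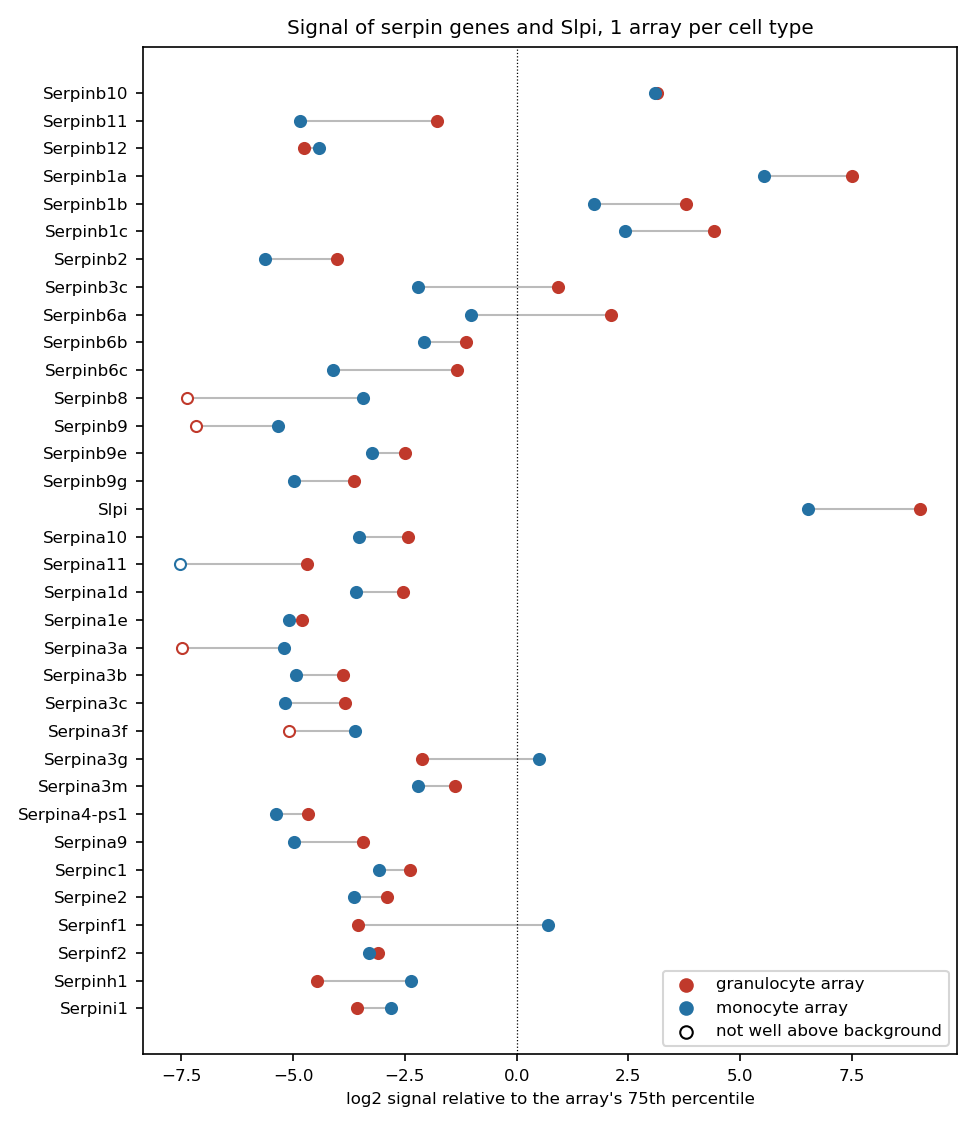
Level of each of the 34 genes on the granulocyte array (red) and the monocyte array (blue), as log2 signal relative to the array's 75th percentile, with clade B and Slpi in the upper rows. Open points were not well above background. The longest measured lines are those of Serpinb6a, Serpinb3c and Serpinb11, with the granulocyte point to the right, and of Serpinf1, with the monocyte point to the right.

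Slpi had a high signal in both cell types and was higher in granulocytes. Its signal was 176642 in granulocytes and 57139 in monocytes, a difference of 2.50 ± 0.20 (spot error), or 5.66-fold. It was 1.63 without scaling and 1.74 after quantile normalisation, both short of 4-fold. This value came from a probe at base 977 of the transcript (mm8 chr2:164045554-164045613). A second Slpi probe, at base 99, had signals of 9.90 in granulocytes and 2.22 in monocytes and was not well above background on either. The reason for the gap between these probes was not tested.

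Clade B held 24 of the 55 genes and 15 of the 34 above background, and 5 of the 6 genes past 4-fold in favour of granulocytes were in it, the other being Slpi. Its differences had a median of 1.79 and ran from -1.73 to 3.15. The 9 genes above background in the cluster on chromosome 13, between 32850318 and 33926309 in mm8, had a median of 1.99. The 8 with a difference were higher in granulocytes, by 0.75 to 3.15. Of all genes, 59.6% had a difference above zero, a share that counts genes with no fold as not above zero. The ninth, Serpinb9, was above background on the monocyte array only and had no fold. Without scaling, Serpinb9e of this cluster changed sign.

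Serpinb1a is the leukocyte elastase inhibitor, which traps elastase, proteinase 3 and cathepsin G. Its signal was 61736 in granulocytes and 28613 in monocytes, a difference of 1.98 ± 0.20. Serpinb1b, a close copy, had 4702 in granulocytes and 2048 in monocytes, a difference of 2.07 ± 0.20. Serpinb1c, another copy, had 7207 in granulocytes and 3318 in monocytes, a difference of 1.99 ± 0.20. These 3 genes thus sat side by side at the 4-fold size, with Serpinb1b just past it and Serpinb1a and Serpinb1c just short. The spot error is the same share of the signal for all 3, so it cannot order them. The second Serpinb1c probe, at base 589, gave 1283 in granulocytes and 505 in monocytes, a difference of 2.22. The second Serpinb1b probe, at base 1412, was at 2.33 in granulocytes and 2.40 in monocytes, not well above background on either. As scanned, the granulocyte signal was 2.16 times the monocyte signal for Serpinb1a, 2.30 times for Serpinb1b, and 2.17 and 2.54 times for the Serpinb1c probes. Whether RNA of one copy adds to the signal of another copy's probe was not tested, so the split between the 3 is uncertain.

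Serpinb6a, an intracellular inhibitor whose human counterpart inhibits cathepsin G, was higher in granulocytes. Its signal was 1474 in granulocytes and 304 in monocytes, a difference of 3.15 ± 0.20, or 8.87-fold. A second probe, on a cDNA clone named as Serpinb6a, was at 1.93 in granulocytes and 1.96 in monocytes, not well above background. Serpinb6c, a neighbouring copy, had 134 in granulocytes and 35.8 in monocytes, a difference of 2.78 ± 0.22. The third copy, Serpinb6b, had 156 in granulocytes and 148 in monocytes, a difference of 0.94, so the Serpinb6 genes did not have one pattern.

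Serpinb3c belongs to the mouse genes related to the human squamous cell carcinoma antigens, which inhibit cysteine and serine proteases. Its signal was 649 in granulocytes and 135 in monocytes, a difference of 3.13 ± 0.21. This probe lay at base 1464 of a cDNA clone. The other Serpinb3c probe, which also lists Serpinb3b, gave 8.67 on the granulocyte array, not well above background, and 13.7 on the monocyte array. The bright probe and the dim one therefore did not give the same picture, and which transcript the bright one read was not tested. Serpinb11, another gene of the chromosome 1 cluster, had 99.1 in granulocytes and 21.5 in monocytes, a difference of 3.07 ± 0.25. Serpinb2, which inhibits urokinase and is known from activated macrophages, was dim in both cell types at 21.0 in granulocytes and 12.6 in monocytes, a difference of 1.60.

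Serpinb10, also called bomapin, is known for its expression in blood-forming cells. It had a high signal in both cell types and its difference was near zero. Its signal was 2996 in granulocytes and 5283 in monocytes, a difference of 0.05 ± 0.20. The sign of this gene turned under 4 other settings, at -0.82 without scaling, -0.36 after quantile normalisation, -0.13 in the authors' deposited table and -0.08 after normexp correction. Its second probe, at 64.6 in granulocytes and 75.4 in monocytes, differed by 0.65.

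Serpinb8, whose human counterpart inhibits furin, was seen on the monocyte array only. Its signal was 2.03 on the granulocyte array, not well above background, and 57.3 on the monocyte array, which makes it at least 3.31-fold higher in monocytes (bound of -1.73). After normexp the difference was -0.22. A second probe was below background on both arrays, at 1.98 in granulocytes and 9.39 in monocytes. Serpinb9, the inhibitor of granzyme B, was likewise above background on the monocyte array only, at 2.34 in granulocytes and 15.4 in monocytes, too dim for a fold. Its second probe, at 2.29 in granulocytes and 11.6 in monocytes, was not well above background on either. Of the other Serpinb9 copies above background, Serpinb9e differed by 0.75 and Serpinb9g by 1.34, and the Serpinb9g probe also lists Serpinb9f. A second Serpinb9g probe was not well above background on either array, at 7.06 in granulocytes and 4.99 in monocytes. Serpinb12 was dim on both arrays, with a difference of -0.33.

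**Figure D2:**
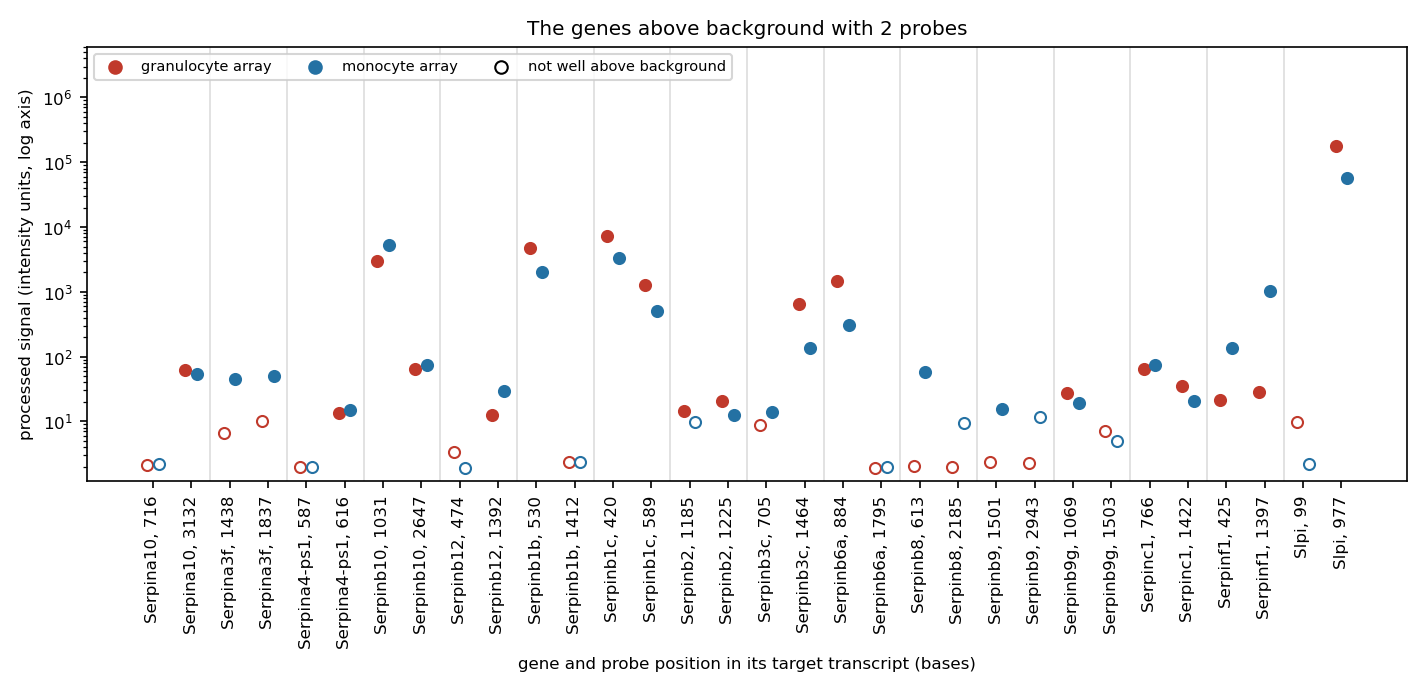
Processed signal, on a log axis, of both probes of the 16 genes above background that have 2 probes, on the granulocyte array (red) and the monocyte array (blue). Each tick gives the gene and the first base of the probe in its target transcript, and open points were not well above background. Slpi, Serpinb1b and Serpinb6a each have 1 bright probe and 1 at background on both arrays, while both Serpinf1 probes are higher on the monocyte array.

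Clade A held 20 genes, of which 12 were above background. None passed 4-fold in favour of granulocytes, and 1, Serpina3g, passed it in favour of monocytes. At 2-fold, 6 were higher in granulocytes and 2 in monocytes, and the median difference was 1.04. The 6 higher in granulocytes were all under 2-fold without scaling (0.168 to 0.673) and after normexp (0.783 to 0.952). Serpina3g, known as Spi2A, is an intracellular member that inhibits lysosomal cathepsins. Its signal was 78.3 in granulocytes and 874 in monocytes, a difference of -2.61 ± 0.21, or 6.10-fold higher in monocytes. Its copy Serpina3f was above background on the monocyte array only, at 10.01 in granulocytes and 51.0 in monocytes, and was at least 2.79-fold higher in monocytes. A second Serpina3f probe gave 6.61 in granulocytes and 45.1 in monocytes, with the same direction. Serpina3a was also above background on the monocyte array only, at 1.90 in granulocytes and 16.7 in monocytes, too dim for a fold.

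Other Serpina3 copies leaned towards granulocytes at low signals. Serpina3c differed by 1.34 and Serpina3b by 1.04, and Serpina3m, at 130 in granulocytes and 134 in monocytes, differed by 0.83. As scanned, Serpina3m was slightly higher in monocytes, at -0.04, while Serpina3b was at 0.17 and Serpina3c at 0.47. After normexp Serpina3b was at 0.79 and Serpina3c at 0.78, so both were 2-fold higher in granulocytes only with some of the settings.

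The alpha-1-antitrypsin genes, whose liver product is the main elastase inhibitor of plasma, were dim on both arrays. The Serpina1d probe, which also lists Serpina1c and Serpina1e, differed by 1.04, at 58.0 in granulocytes and 51.6 in monocytes. The Serpina1e probe, which also lists Serpina1b, Serpina1c and Serpina1d, differed by 0.29. These values belong to the group of copies and not to a single gene. Serpina9, known from germinal centre B cells, differed by 1.54, at 31.2 in granulocytes and 19.5 in monocytes. Serpina10, an inhibitor of activated factor X with protein Z, was 2.14-fold higher in granulocytes, at 62.8 in granulocytes and 53.7 in monocytes. That probe is on a cDNA clone. The other Serpina10 probe was not well above background on either array, at 2.14 in granulocytes and 2.17 in monocytes. Serpina11 was the dimmest gene that met the rule, at 13.1 in granulocytes and 3.36 in monocytes, where it was not well above background. It was at least 2.54-fold higher in granulocytes. The pseudogene Serpina4-ps1 differed by 0.71.

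In the remaining clades, Serpinf1 and Serpinh1 were higher in monocytes. Serpinf1, the pigment epithelium-derived factor, is a secreted protein known for blocking the growth of blood vessels. Its signal was 28.8 in granulocytes and 1015 in monocytes, a difference of -4.27 ± 0.23, or 19.3-fold higher in monocytes. This probe lies at base 1397 of the transcript, at chr11:75226261-75226320 in mm8. The printed probe at base 425 gave 21.3 in granulocytes and 135 in monocytes, a difference of -1.80. Both probes were above background on both arrays and had the same direction, but the sizes were far apart. After normexp the brighter probe gave -2.75, and the mean of both probes gave -3.03. Each was smaller in size than the difference of Serpinb6a under the same setting (2.84 after normexp and 3.15 with the mean of probes). That mean takes only probes above background, which for Serpinb6a was 1 probe. The neighbouring gene Serpinf2, the main inhibitor of plasmin in plasma, differed by 0.20, at 39.5 in granulocytes and 63.0 in monocytes.

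Serpinh1, the collagen chaperone of the endoplasmic reticulum, had 15.4 in granulocytes and 120.3 in monocytes, a difference of -2.09 ± 0.30. After normexp background correction it was -0.34. Serpinc1, or antithrombin, differed by 0.69 with one probe and by 1.64 with the other. Serpine2, an inhibitor of thrombin and the plasminogen activators, differed by 0.74. Serpini1, which inhibits the tissue plasminogen activator, differed by -0.75, at 28.7 in granulocytes and 88.2 in monocytes.

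The genes below background on both arrays numbered 21, with 25 probes and signals of 1.94 to 7.26 in granulocytes and 1.98 to 9.30 in monocytes. They included Serpina12, Serpina1b, Serpina1f, Serpina3k, Serpina3n, Serpina5, Serpina6, Serpina7, Serpinb13, Serpinb3a, Serpinb3b, Serpinb3d, Serpinb5, Serpinb7, Serpinb9b, Serpinb9c, Serpinb9d, Serpind1, Serping1 and Serpini2. The brightest of them by summed signal, Serpina3k, had 5.88 in granulocytes and 9.30 in monocytes. Serping1, the inhibitor of complement C1, was thus not detectable in either cell type with these probes. At the other end, 21 of the 34 genes above background had signals under 100 on both arrays, and the differences of those measured on both arrays ran from -0.75 to 3.07.

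**Figure D3:**
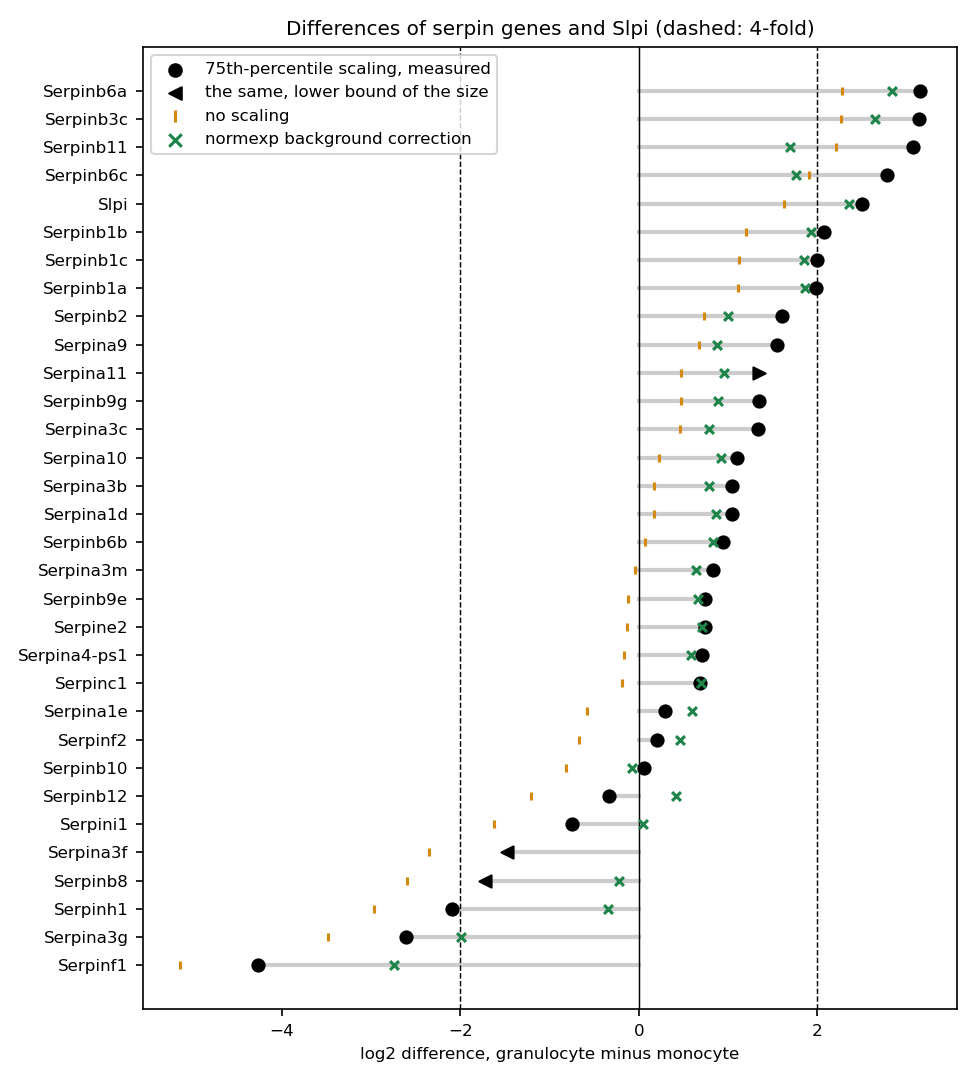
Log2 difference, granulocyte minus monocyte, of the 32 genes with a value, sorted by size, with the 4-fold size dashed. Black points are measured, triangles are lower bounds of the size, orange ticks have no scaling between the arrays and green crosses use normexp background correction, with none for Serpina3f. The 6 genes past 4-fold on the right run from Serpinb6a at 3.15 to Serpinb1b at 2.07, and the 3 on the left are Serpinh1, Serpina3g and Serpinf1.

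Markers of other cell types moved with some of these genes. The 9 markers of natural killer and cytotoxic T cells had a summed level of 1.95 in granulocytes and 16.0 in monocytes. Of the 9, Ncr1 was not well above background on either array and Prf1 was not on the granulocyte array, and 5 passed 4-fold in favour of monocytes. The 5 plasmacytoid dendritic cell markers had 5.67 in granulocytes and 28.2 in monocytes, with Siglech not above background on the granulocyte array. Most of the monocyte sums came from Nkg7, with 433 in granulocytes and 7736 in monocytes, and Bst2, with 1508 in granulocytes and 14317 in monocytes. Cd3e, at 0.44, and Klk1, at 1.09, leaned towards granulocytes. The sums of both lists moved in the direction of Serpina3g, Serpinb8 and Serpinf1, while Serpinb9, seen on the monocyte array only, had no fold. The part of these cells in the values of those genes was not tested. The 6 stromal and endothelial markers had 2.48 in granulocytes and 0.775 in monocytes, but their directions were mixed. Col1a1, higher in granulocytes by 3.95, had the largest level of the list on that array. Cxcl12 was at 1.82, Col1a2 at 0.99 and Pecam1 at 0.14. Kdr was at -0.26, and Cdh5, above background on the monocyte array only, had a bound of -1.64. Both had the direction of Serpinf1 and Serpinh1. The part of stromal and endothelial cells in the values of Serpinf1 and Serpinh1 was not tested.

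On the granulocyte side, the 6 mast cell and basophil markers had a summed level of 329 in granulocytes and 10.47 in monocytes. Hdc gave nearly all of both sums, with signals of 111370 in granulocytes and 6250.5 in monocytes. The brightest of the others, Mcpt8, had 125 in granulocytes and 114 in monocytes. The 6 erythroid markers had 221 in granulocytes and 64.4 in monocytes, most of it from Hbb-bt, with signals of 71950 in granulocytes and 38289 in monocytes. The 6 megakaryocyte markers had 3.75 in granulocytes and 1.28 in monocytes. The 6 B cell markers had 6.33 in granulocytes and 5.45 in monocytes. The 5 eosinophil markers had 9.46 in granulocytes and 5.90 in monocytes, with Il5ra not above background on either. The part of these cells in the values of the genes higher in granulocytes was not tested. Nor was that of granulocyte RNA in the monocyte sample, where the granulocyte markers kept a summed level of 501.

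The serine proteases of azurophil granules, among them known targets of Serpinb1a and Slpi, had the opposite direction to these inhibitors. They are known to be transcribed mainly in promyelocytes. All 4 were lower in granulocytes, 3 of them by 4-fold or more, with a median difference of -3.48. Under each alternative the median of this list stayed below zero. Elane, neutrophil elastase, had 387 in granulocytes and 9033 in monocytes, a difference of -3.67. Prtn3, proteinase 3, had 222 in granulocytes and 4801 in monocytes, a difference of -3.56. Ctsg, cathepsin G, had 3140 in granulocytes and 60748 in monocytes, a difference of -3.40. Beside these, Serpinb1a was at 1.98 and Slpi at 2.50.

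Other proteases gave mixed counts. Of the 5 granzymes above background, Gzmb was at least 6.83-fold higher in monocytes, where its inhibitor Serpinb9 was seen with 1 of its 2 probes. All 10 cysteine cathepsins were above background, 3 of them passed 4-fold in favour of monocytes (Ctsc at -4.80, Ctss at -4.50 and Ctsw at -3.95), and the median was -1.04. Of 3 plasminogen activation genes above background, Plaur, the urokinase receptor, was higher in granulocytes by 2.32 and Plau, urokinase itself, by 1.80. Of 7 coagulation proteases, F12 was higher in granulocytes by 4.42, while F10, factor X, was at -6.03. Of 8 complement proteases, Cfb was at least 92.0-fold higher in monocytes, and the median was 0.39. Of 6 mast cell and basophil proteases, Cpa3 was higher in granulocytes by 2.35, and the median was 0.98. Without scaling, the list medians that turned below zero were those of the coagulation proteases (-0.07), the complement proteases (-0.48), the other inhibitors (-0.07) and the receptors (-0.04). The counts at 4-fold for these lists stand beside 8.54% of all genes for granulocytes and 10.4% for monocytes.

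Other inhibitor families and the receptors that clear inhibitor complexes were set beside the serpins. Of 15 other serine protease inhibitors above background, 2 passed 4-fold in favour of granulocytes and 1 in favour of monocytes, and the median was 0.80. Wfdc21, of the same family as Slpi, had 77901 in granulocytes and 10421 in monocytes, a difference of 3.77. Pi16, a secreted protein named as a protease inhibitor, had 16073 in granulocytes and 2297 in monocytes, a difference of 3.68. Spink2, of the Kazal family, was above background on the monocyte array only and was at least 25.4-fold higher there. All 6 receptor genes were above background. Lrp1, the main receptor that takes up serpin and protease complexes, had 102 in granulocytes and 5000.1 in monocytes, a difference of -4.74. Lrpap1, its chaperone, was at -2.43, and Vldlr, a related receptor, was higher in granulocytes by 2.79.

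**Figure D4:**
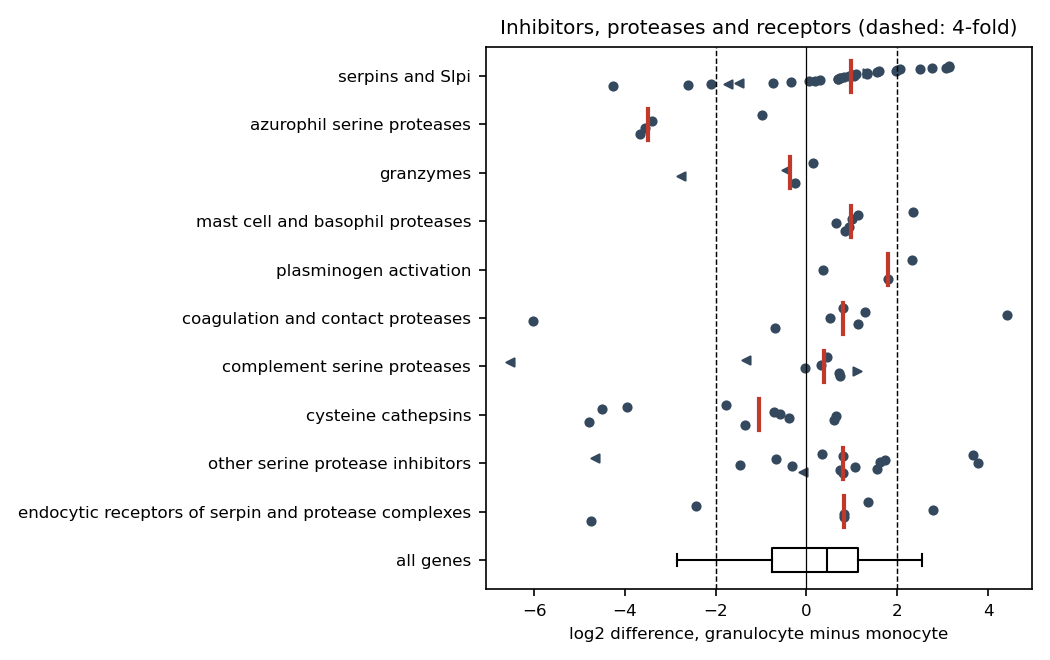
Log2 difference, granulocyte minus monocyte, of the serpin genes and Slpi and of 9 lists of proteases, inhibitors and receptors. Each point is a gene, triangles are lower bounds, red bars are list medians, and the box for all genes shows the quartiles with whiskers to the percentiles 5 and 95. The azurophil proteases lie left of zero with a median of -3.48, and the serpin genes and Slpi have a median of 0.99, right of the 0.45 of all genes.

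The bases before the start of transcription are shown for genes picked from those past 4-fold, Slpi for granulocytes and Serpina3g and Serpinf1 for monocytes. Serpinb6a, Serpinb3c, Serpinb11 and Serpinb6c had larger differences in favour of granulocytes than Slpi and are not shown. The bases printed are the 250 upstream of the start in RefSeq's annotation of the mouse assembly GRCm38.p6, a build other than that of the probes. Short motifs were looked up on both strands. They were GAGGAAGT for PU.1, a master factor of myeloid cells, TTGCNNAA for the C/EBP factors of granulocytes, and TTCNNNGAA for the interferon-activated site of STAT factors. Capitals mark the matches.
Slpi: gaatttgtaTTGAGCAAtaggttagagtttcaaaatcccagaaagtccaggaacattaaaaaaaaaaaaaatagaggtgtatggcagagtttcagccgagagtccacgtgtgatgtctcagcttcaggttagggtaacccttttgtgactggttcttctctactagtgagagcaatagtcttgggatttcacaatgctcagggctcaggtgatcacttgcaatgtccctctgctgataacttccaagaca
Serpina3g: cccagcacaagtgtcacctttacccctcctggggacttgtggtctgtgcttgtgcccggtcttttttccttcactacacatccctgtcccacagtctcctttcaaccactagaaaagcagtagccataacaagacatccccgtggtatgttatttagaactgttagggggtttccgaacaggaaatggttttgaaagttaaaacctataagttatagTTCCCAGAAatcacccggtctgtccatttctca
Serpinf1: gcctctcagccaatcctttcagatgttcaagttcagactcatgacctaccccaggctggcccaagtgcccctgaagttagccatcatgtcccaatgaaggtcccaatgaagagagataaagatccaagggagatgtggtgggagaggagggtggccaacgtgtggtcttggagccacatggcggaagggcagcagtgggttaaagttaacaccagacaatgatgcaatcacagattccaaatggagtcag
The Slpi stretch, at chr2:164356508-164356757 on the minus strand, held 1 match to the C/EBP motif, on the opposite strand of the print, starting at base -241. The Serpina3g stretch, at chr12:104235897-104236146 on the plus strand, held 1 match to the interferon-activated site, starting at base -33. The Serpinf1 stretch, at chr11:75422624-75422873 on the minus strand, held none of the motifs. Of 32851 promoter entries of the same length, 9.6% held the C/EBP motif, 7.0% the interferon-activated site and 2.4% the PU.1 motif. No match overlapped another. A symbol that began with Serpin, or was Slpi, was on 64 entries, whether or not the array held the gene. Of these 64, 16 held the C/EBP motif, 10 the interferon-activated site and 0 the PU.1 motif. This counts entries and not genes, and close copies count separately, so no excess over all entries was tested. Of the 55 genes on the array, 45 had an entry. These are matches of letters and say nothing of binding.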

How the data were processed

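RNA of granulocytes and of monocytes was measured on 1 Agilent one-colour array each. Per the file headers, Agilent Feature Extraction 10.5.1.1 gave a background-subtracted intensity per spot on a linear scale, with no normalisation across arrays, with flags for outliers, saturation and signal well above background. Per the labels, 0.5 µg of total RNA was amplified. The authors' deposited value table was on the log2 scale and equalled the log2 processed intensity plus a constant, -0.24 in the granulocyte column and -0.92 in the monocyte column (within 0.01 for 100.0% of 40929 single-spot probes). The median of each of its columns was 4.8, and the rule behind its centring is unknown.

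Control spots and outlier spots (143 in granulocytes and 103 in monocytes) were dropped. The remaining log2 processed signals were scaled to each array's percentile 75, and spots of a probe were averaged. A gene was represented by its probe with signal above background on more arrays, and among equals by the one with most signal. Where 1 array was not well above background, the difference is a lower bound. It is the bright level minus a floor, which is the dim level itself or that array's lowest level well above background (-5.16 in granulocytes and -6.04 in monocytes), whichever is higher. Where this gave no size, no fold is given. Both arrays were on 1 slide and in 1 scan. Genes were counted by size, 4-fold and 2-fold, with no test, since the number of arrays sets the precision.

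Of 41174 gene probes, 24375 were named by RefSeq accession (assembly GRCm38.p6), 6301 by symbol and 2426 by an older symbol, and 8072 were unnamed. Of the 75 serpin and Slpi probes, 6 list several genes. An item among these is not reported here by name, though counts include it. Values in full are given for genes past 4-fold and the 6 brightest on each array, and of the lists the genes past 4-fold are named. Where the text gives more, those genes were chosen after their values were seen. The members, lists and markers were chosen with earlier results of these data known. Alternatives were 3 other scalings, normexp (limma 3.58.1, offset 50), the authors' table, the mean of a gene's probes, and 2 filters. The steps were tested on simulated data. Python 3.11.15, pandas 2.3.3 and R 4.3.3 were used.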

Additional observations from a re-analysis of the deposited data

How the results depend on the processing

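The 9 genes past 4-fold kept their direction in 72 of 72 values under the alternatives, and the 21 past 2-fold in 162 of 162. The 11 within 2-fold kept theirs in 74 of 87. For genes past 2-fold most of these values could not have changed sign. Leaving out the scaling shifts every difference by 0.87, less than 2-fold, and the 2 filters repeat the same values. Values that a setting did not give, such as Serpina3f after normexp, were not counted. Without scaling between the arrays, 3 serpin genes passed 4-fold in favour of granulocytes and 5 in favour of monocytes, in place of 6 and 3, and all genes gave 581 and 3013, in place of 1333 and 1623. The serpin median was then 0.014, in place of 0.992. With normexp correction the counts were 3 and 1 for the serpin genes and 872 and 895 for all genes, and Serpinf1 was at -2.75. In the authors' deposited table the serpin median was 0.702. The other scalings differ from the first by a constant for all genes, except quantile normalisation, and the normexp offset of 50 shrinks the differences of dim genes by construction. The median of all genes, 0.45 at first, was -0.42 without scaling, 0.21 after quantile normalisation and 0.26 in the authors' table. Taking the mean of a gene's probes put Serpinf1 at -3.03. A value counted as moved past 0.229, the median SD between probes of a gene over 5389 genes. Signal near background limits the 21 genes under 100 on both arrays. No paired analysis was possible because each cell type had 1 array.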
